A study of Mus musculus with 16 samples.

Results

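Ribosomal protein pseudogenes are described here in mouse testis RNA that was separated with J2, a monoclonal antibody to double-stranded RNA. They were taken as every gene whose symbol is a ribosomal protein name followed by -ps and, in most cases, a number. Of the 35920 genes analysed, 21 met that rule, and each was set beside its parent gene, the one named before -ps. The 21 copies have 16 parents: 12 parents have 1 copy each and 4 have more than 1 (Rpl7a has 3, and Rpl36, Rpl9 and Rps2 have 2 each). A further 279 symbols of this form exist in the identifier table and were not analysed here.

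The 16 libraries form 6 groups, with the RNA bound by J2 and the unbound RNA (flow-through) of each testis type sequenced apart. Testes labelled Dcr-/- (called KO below) at postnatal day 18 (P18) gave 3 J2 and 3 flow-through libraries, and adult testes of unstated strain gave 2 and 2. Wild-type testes (WT) at P18 gave 3 and 3. KO and WT mice were both of mixed C57BL/6 and 129S4/SvJae background, so age and strain cannot be told apart in any comparison with adults. Flow-through RNA was depleted of ribosomal RNA as well as of double-stranded RNA, per the labels. The labels name no Cre driver or deleted exon. Nothing in them says that the replicates are different animals, so the spread behind the p-values may be technical.

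Dicer, the RNase that cuts microRNA precursors and long double-stranded RNA, was too low to check the KO label. Dicer1 had normalized counts of 3.39, 0 and 0 in KO J2 libraries and 11.3, 0 and 8.64 in WT J2 libraries. It had 0, 3.68 and 8.33 in KO flow-through and 5.10, 12.4 and 0 in WT flow-through. Germ cell markers (6 genes) summed to between 386 and 1789 in every library. The 5 spermatid markers summed to at least 857 in each adult library and to at most 13.9 in each P18 library, in which 5 of the 5 were at 0 in all KO J2 libraries. Column totals were 445600 to 823730 units in J2 and 6053864 to 34859647 in flow-through. Among genes above 0, 13.1% to 35.8% lay below 1 unit in a J2 library and 0.185% to 3.99% in a flow-through library.

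Mammalian genomes hold many processed pseudogenes of ribosomal protein genes, made when an abundant ribosomal protein mRNA was copied back into DNA and inserted elsewhere. Such a copy has no introns and can differ from the parent mRNA at few positions, so a short read can match both, and a quantifier such as Salmon generally divides such reads between transcripts by a model. A value on a pseudogene may therefore be transcription of the copy or reads of its parent, and in these normalized counts the 2 cannot be told apart. Values are normalized counts and not given per length, so a share of a family's signal is a share of these counts and not of RNA molecules. In whole-testis RNA, fewer cells of a type and less RNA per cell also cannot be told apart.

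All 21 copies are annotated as pseudogenes in RefSeq (assembly GRCm38.p6, which mm10 names) and span 359 to 949 bp, with a median of 625 bp. The other 272 ribosomal protein pseudogenes with an entry have a median of 526 bp. The 21 lie on 11 chromosomes, and 1 of them, Rpl36-ps4, shares a chromosome (17) with its parent. Of the 21, 6 overlap another annotated gene, among them Rps12-ps3 in Pdzd8, Rps26-ps1 in Wwp2 and Rps2-ps10 in Pde6a. The 16 parents have 122 annotated copies in all, 1 to 24 each. Rps12 has 24 and Rpl10 has 6, of which 1 each was analysed here.

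Of the 21 copies, 9 (42.9%) were listed at 0 in all 16 libraries: Rpl7a-ps8, Rpl9-ps1, Rpl13-ps3, Rpl13a-ps1, Rpl18-ps2, Rpl21-ps4, Rpl23a-ps3, Rpl36-ps4 and Rps18-ps3. So were 51 of 101 pseudogenes of other gene families (50.5%) and 11700 of all 35920 genes (32.6%). Of the 12 above 0 in any library, 8 were above 0 in J2 libraries only, 0 in flow-through only and 4 in both fractions. Of the 24220 genes above 0 in any library, 7014 were so in J2 only and 515 in flow-through only. Of the 50 such pseudogenes of other families, 25 were above 0 in J2 only and 1 in flow-through only. The lowest non-zero copy value was 0.116 units in J2 and 6.39 in flow-through, so low copies could be listed above 0 more readily in J2. A value of at least 10 in 2 or more libraries was found for 5 of the 21 (23.8%), against 8 of 101 pseudogenes of other gene families (7.92%) and 9526 of all 35920 genes (26.5%). It was found for 15 of the 16 parents (93.8%) and 63 of the 64 other cytosolic ribosomal protein mRNAs (98.4%). The 5 copies were Rps12-ps3, Rpl10-ps3, Rpl27-ps3, Rps2-ps10 and Rpl39-ps. At least 10 units in any library of the group were reached by 4 copies in KO J2, 1 in KO flow-through, 3 in adult J2, 2 in adult flow-through, 3 in WT J2 and 3 in WT flow-through.

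**Figure D1:**
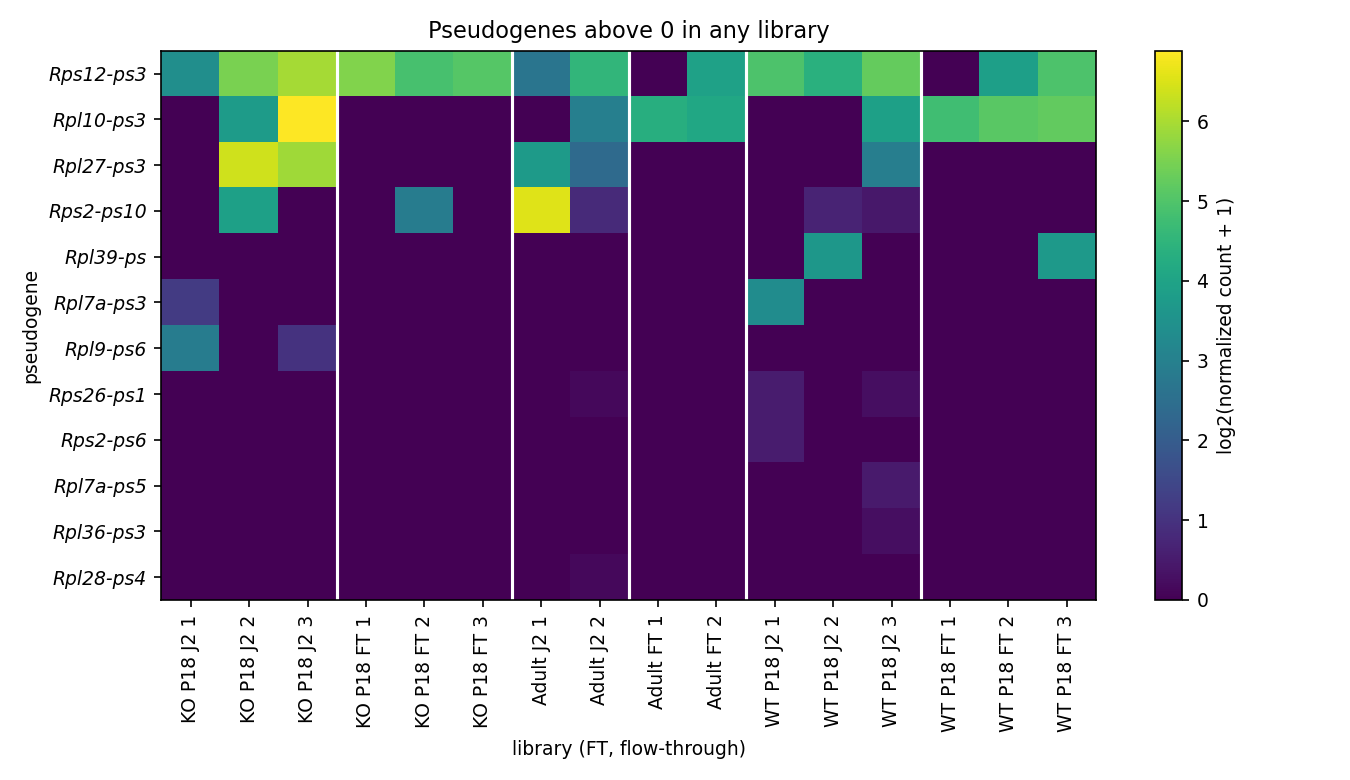
Normalized counts, as log2(value + 1) in colour, of the 12 pseudogenes above 0 in any library (rows) in the 16 libraries (columns, by group, FT being flow-through). Rps12-ps3 is above 0 in 14 libraries and Rpl10-ps3 in blocks of libraries, while the lower 8 rows hold 1 to 3 non-zero values each.

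Rps12-ps3 carried the entire signal of its family. Rps12, which encodes a protein of the small ribosomal subunit, was listed at 0 in all 16 libraries, although it is a gene that every cell uses. Rps12-ps3 (chr19:59322290-59322784, mm10) was above 0 in 14 libraries and at 0 in 2. It had 9.52, 44.1 and 61.3 units in KO J2 libraries and 47.0, 28.6 and 32.6 in KO flow-through libraries. Adult J2 libraries had 5.42 and 22 units, and adult flow-through libraries 0 and 14.3. WT J2 libraries had 30.2, 19.6 and 37.1 units, and WT flow-through libraries 0, 13.8 and 30.0. The fractions overlapped in each testis type, and KO and WT libraries overlapped in both fractions save that 2 of 3 KO flow-through values lay above every WT one. The 2 zeros were adult and WT flow-through replicate 1.

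No change of Rps12-ps3 passed the test (limma on log2(value + 1), Benjamini-Hochberg over all genes tested, threshold 0.05). The J2 minus flow-through difference on that scale was -0.23 in KO (SE 1.24, adjusted p = 0.995), 1.63 in adult (SE 1.52, adjusted p = 0.907) and 1.91 in WT (SE 1.24, adjusted p = 0.51). KO minus WT was 0.09 in J2 (SE 0.98, adjusted p = 1) and 2.23 in flow-through (SE 1.45, adjusted p = 0.856). The KO difference between fractions was 3.55 (adjusted p = 0.00617) after rescaling every library to a common total, a setting that moved the median of all genes to 2.16 from -0.15, and so its sign depends on the scaling. Pdzd8, whose span holds Rps12-ps3, had its highest values, 111 and 72.5 units, in adult J2 and adult flow-through replicate 2, where Rps12-ps3 had 22 and 14.3. Pdzd8 was at 0 in KO J2 replicate 2 and in KO flow-through replicates 1 and 3, where Rps12-ps3 had 44.1, 47.0 and 32.6 units. It was also at 0 in WT J2 replicate 1 and WT flow-through replicate 1, where Rps12-ps3 had 30.2 and 0 units. Whether reads of Pdzd8 reached Rps12-ps3 was not tested.

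Rpl10 and Rpl10-ps3 exchanged places between groups of libraries. Rpl10 encodes a large-subunit protein (uL16) that joins the subunit late in its assembly, and it lies on the X chromosome (chrX:74270816-74273135). Its copy Rpl10-ps3 lies on chromosome 9 (chr9:50344226-50344984), 42347 bp from the nearest annotated gene. In KO flow-through all signal of the pair was on the parent, in WT J2 most of it was on the parent, and in WT flow-through all of it was on the pseudogene.

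Rpl10-ps3 had 0, 12.6 and 117 units in KO J2 libraries and 0 in each of the 3 KO flow-through libraries. It had 0 and 6.78 units in adult J2 and 18.9 and 16.3 in adult flow-through. It had 0, 0 and 14.0 units in WT J2 and 26.6, 33.7 and 36.5 in WT flow-through. Flow-through libraries thus lay above the J2 libraries in WT and in adult testis, and in KO testis they were at 0 with J2 replicate 1. The share of all genes whose fractions separate in this way was not counted.

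Rpl10 had 30.9, 102 and 21.2 units in KO J2 libraries and 81.6, 51.2 and 49.5 in KO flow-through libraries. It had 0 and 6.19 units in adult J2 and 7.57 and 1.59 in adult flow-through. It had 29.0, 51.7 and 42.0 units in WT J2 and 0 in each of the 3 WT flow-through libraries. Both genes were above 0 in 6 libraries, the parent alone in 6, the pseudogene alone in 3 and neither in 1, adult J2 replicate 1. Over each group's libraries, the pseudogene held 45.7% of the pair's signal in KO J2, 0% in KO flow-through, 52.3% in adult J2, 79.3% in adult flow-through, 10.2% in WT J2 and 100% in WT flow-through. The KO J2 share rests on replicate 3, which held 117 of the group's 129.7 pseudogene units.

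**Figure D2:**
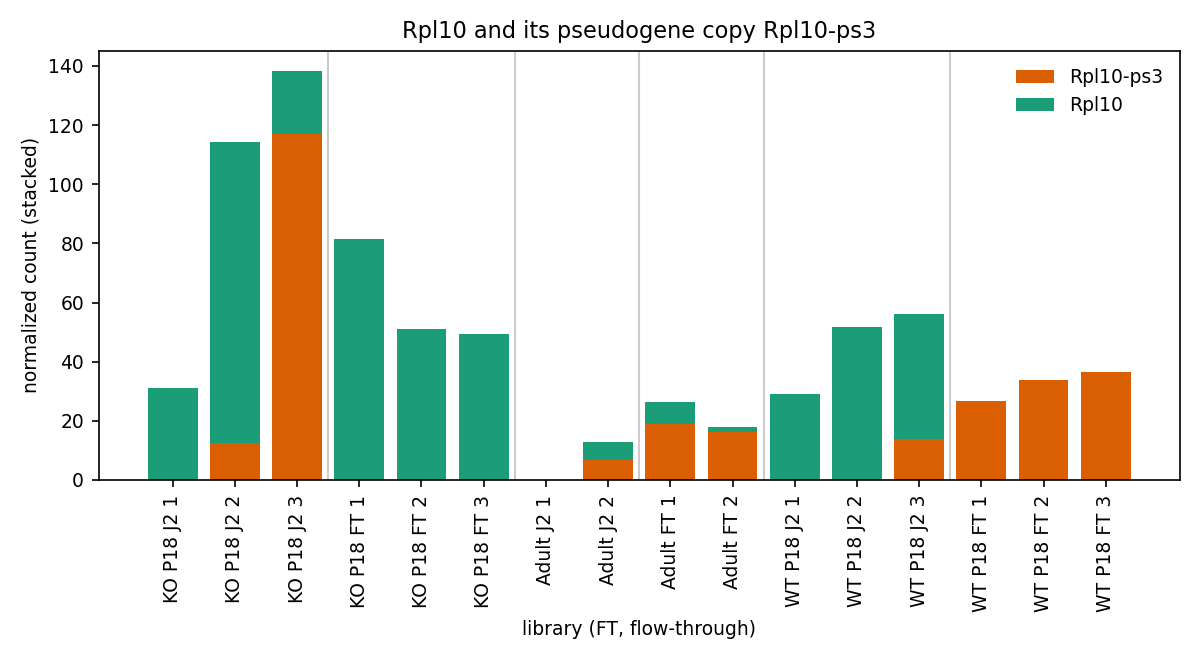
Normalized counts of Rpl10-ps3 (orange) and its parent Rpl10 (green), stacked, in each of the 16 libraries (FT, flow-through). The 3 KO flow-through bars are parent alone and the 3 WT flow-through bars pseudogene alone.

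Few genes showed such all-or-none patterns. Rpl10-ps3 was 1 of 2 genes listed at 0 in all 3 KO flow-through libraries and at 10 or more in all 3 WT ones (0.028% of the 7141 genes tested), the other being Gm28635. Rpl10 was 1 of 6 with the reverse pattern (0.084%), beside Ccna2, Cxcl12, G6pdx, Gprasp2 and Vrk3. It was also 1 of 17 genes at 10 or more in all 3 WT J2 libraries and at 0 in all 3 WT flow-through ones (0.178% of the 9526 tested). Of the 50 pseudogenes of any family that stand in the table with a parent, 21 of them ribosomal, only Rpl10-ps3 combined the 2 flow-through patterns with its parent. The patterns were taken from the values of this pair, so that it meets them is no test. Only 2 ribosomal pseudogenes and 6 of other families reached 10 in 2 flow-through libraries, so most of the 50 could not have met them.

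Taken as separate genes, neither member of the pair passed between KO and WT. In flow-through, KO minus WT was -5.04 on the log2(value + 1) scale for Rpl10-ps3 (SE 0.946, adjusted p = 0.332) and 5.91 for Rpl10 (SE 1.02, adjusted p = 0.276) in limma. No gene was called in that comparison (0 of 7141, 0%), and with a pseudocount of 10 the Rpl10-ps3 difference was -2.07 (adjusted p = 0.721). These fitted differences against a group at 0 depend on the pseudocount and are no fold changes. Between J2 and flow-through in KO, Rpl10-ps3 had 3.55 (SE 1.5, adjusted p = 0.374) and Rpl10 -0.53 (SE 0.994, adjusted p = 0.901). In WT, Rpl10 rose in J2 (5.35, SE 0.994, adjusted p = 0.0128), while Rpl10-ps3 had -3.74 (SE 1.5, adjusted p = 0.256). The Rpl10 call was lost with a pseudocount of 10 (adjusted p = 0.0508), with the compared groups alone (0.12), with a replicate block (0.0842) and without WT J2 replicate 2 (0.0574). The difference between KO and WT in the J2 effect was 7.29 for Rpl10-ps3 (SE 2.12) and -5.88 for Rpl10 (SE 1.41), with an adjusted p of 0.939 for each.

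The ratio of copy to parent was tested over all 8 pairs, of any family, whose pseudogene reached 10 in 2 libraries. J2 minus flow-through of the log2 ratio of Rpl10-ps3 to Rpl10 was 4.08 in KO (SE 1.91, limma adjusted p = 0.284) and -1.92 in adult testis (SE 2.34, adjusted p = 0.49). In WT it was -9.09 (SE 1.91, adjusted p = 6.57e-05), so the ratio was lower in J2 there. KO minus WT of that difference was 13.17 (SE 2.70, adjusted p = 4.2e-05), a contrast added after the values were seen. Empirical Bayes drew the spread in these fits mostly from the 8 pairs together. Their limma p-values therefore do not measure the spread of this pair's own replicates. The log2 ratios, with the pseudocount of 1, of the 3 J2 and the 3 flow-through libraries did not overlap in KO or in WT. Those of KO and WT flow-through did not overlap either. A two-sided exact permutation test of 3 against 3 gave p = 0.1 for each of these, the smallest it can give. Any groups of 3 that do not overlap give that p, so it adds nothing to the separation. How many of the 8 pairs separate in this way was not counted. In KO J2 replicate 1 and in KO flow-through the copy was at 0, so these ratios followed the parent and the pseudocount alone. The copy's share of the pair was 0% in each of these libraries, and by share the KO fractions overlapped. The J2 ratios of KO and WT overlapped (difference 2.22, exact permutation p = 0.6). In the main fit the other 4 ribosomal pairs did not pass in any of the 3 testis types. Without KO J2 replicate 1, 1 of all 5 ribosomal pairs, Rpl10-ps3 with Rpl10 included, passed in KO (smallest limma adjusted p = 0.0426).

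Summing copy and parent into 1 value per library, a setting chosen after the values were seen, ended the call on Rpl10. J2 minus flow-through of the sum was 0.41 in KO (SE 0.91, adjusted p = 0.919) and 0.44 in WT (SE 0.91, adjusted p = 0.886). KO minus WT of the sum was 0.84 in J2 (SE 1.10, adjusted p = 0.943) and 0.87 in flow-through (SE 0.504, adjusted p = 0.844). Adult J2 minus flow-through was -2.61 (SE 1.11, adjusted p = 0.692), and adult minus WT was -3.59 in J2 (SE 1.23, adjusted p = 0.186) and -0.53 in flow-through (SE 0.563, adjusted p = 0.778). The intervals of these sums are wide, and a p above the threshold does not show that levels were equal.

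**Figure D3:**
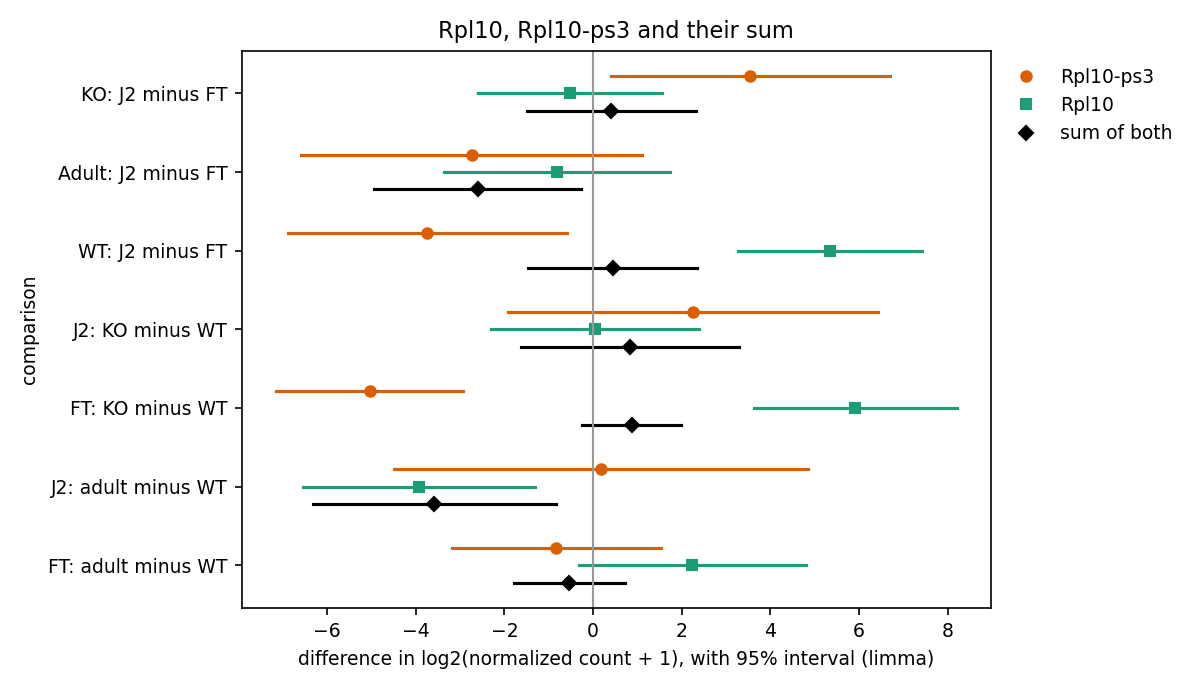
Fitted differences in log2(normalized count + 1) with 95% intervals from limma for Rpl10-ps3 (orange circles), Rpl10 (green squares) and their sum (black diamonds) in 7 comparisons (FT, flow-through). In WT J2 minus flow-through and in KO minus WT flow-through the 2 genes lie on opposite sides of 0 and the sum lies between them, at 0.44 and 0.87.

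Rpl10l, an intronless functional copy of Rpl10 known for its use in testis germ cells, is another possible target of such reads. It had 30.6, 140 and 164 units in KO J2 libraries and 0, 8.94 and 12.2 in KO flow-through libraries. It had 256 and 28.5 units in adult J2 and 23.0 and 24.6 in adult flow-through. It had 332, 141 and 50.4 units in WT J2 and 11.2, 30.8 and 24.8 in WT flow-through. Its J2 minus flow-through difference did not pass in limma in any of the 3 testis types. It was 4.15 in KO (adjusted p = 0.125), 1.81 in adult (adjusted p = 0.853) and 2.64 in WT (adjusted p = 0.271). Whether reads were divided between Rpl10l and the other 2 was not tested.

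Rpl27-ps3, on chromosome 18, was above 0 in J2 libraries alone. Its parent Rpl27 encodes a protein of the large subunit. The copy had 0, 82.9 and 58.3 units in KO J2, 12.6 and 4.19 in adult J2, and 0, 0 and 6.66 in WT J2, and 0 in all 8 flow-through libraries. The parent had 14.5, 9.61 and 26.6 units in KO J2 and 0, 10.2 and 16.9 in KO flow-through. It had 3.17 and 5.09 units in adult J2 and 0 and 12.6 in adult flow-through. It had 90.8, 59.9 and 22.9 units in WT J2 and 18.3, 5.76 and 42.8 in WT flow-through. Parent values in KO J2 thus overlapped those in WT J2 at the low end, and the 2 libraries with the highest copy values were both KO J2. J2 minus flow-through of Rpl27-ps3 was 4.09 in KO (SE 1.30, adjusted p = 0.219 in limma), and without KO J2 replicate 1, the library at 0, it was 6.14 (adjusted p = 0.00995). KO minus WT in J2 was 3.11 (SE 1.84, adjusted p = 0.855), and for copy and parent summed it was -0.15 (SE 0.91, adjusted p = 1).

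Rps2-ps10, also on chromosome 18, rested on 1 library. Its parent Rps2 encodes a small-subunit protein near the site where mRNA enters the ribosome. The copy had 0, 14.0 and 0 units in KO J2 and 0, 6.39 and 0 in KO flow-through. It had 92.8 and 0.779 units in adult J2 and 0 in both adult flow-through libraries. It had 0, 0.604 and 0.347 units in WT J2 and 0 in all 3 WT flow-through libraries. Rps2 itself had 28.6 units in adult J2 replicate 1, the library with 92.8 on the copy, against 8.42 in replicate 2 and 0 and 19.6 in adult flow-through. It had 85.7, 66.9 and 99.1 units in KO J2, 81.4, 34.9 and 49.0 in KO flow-through, 61.4, 50.5 and 64.1 in WT J2, and 20.6, 39.7 and 49.1 in WT flow-through. Adult J2 minus flow-through of Rps2-ps10 was 3.69 (SE 1.51, adjusted p = 0.682 in limma), with the 2 J2 values far apart. Pde6a, whose span holds Rps2-ps10, was at 0 in adult J2 replicate 1, and whether its reads reached the copy was not tested.

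Rpl39-ps had 2 values above 0, 11.6 units in WT J2 replicate 2 and 12.2 in WT flow-through replicate 3. Rpl39, an X-linked gene for a small protein of the exit tunnel, had 5.94 and 0 units in those libraries. In the other 14 libraries, with the copy at 0, it ranged from 0 to 47.2 units. Rpl39-ps did not differ detectably between fractions in limma (WT -0.02, SE 0.926, adjusted p = 1).

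The remaining 7 copies above 0 stayed under 10 units and did not reach the minimum for the main test. Without that minimum, 8 copies entered the J2 against flow-through fits, Rpl7a-ps3, Rpl9-ps6 and Rps26-ps1 among them, and 0 were called by limma. Rpl7a-ps3 had 1.30 units in KO J2 replicate 1 and 9.13 in WT J2 replicate 1. Rpl9-ps6 had 6.42 and 1.02 units in KO J2 replicates 1 and 3. Rps26-ps1 had 0.116 units in adult J2 replicate 2 and 0.442 and 0.192 in WT J2 replicates 1 and 3. Rps2-ps6 (0.426), Rpl7a-ps5 (0.4), Rpl36-ps3 (0.2) and Rpl28-ps4 (0.116) were each above 0 in 1 J2 library. All 7 were at 0 in every flow-through library, where the lowest non-zero value of any copy was 6.39 units.

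No ribosomal protein pseudogene was called in any of the 9 comparisons by limma. The background of genes called in either direction was 0.357% in KO J2 against flow-through, 0.315% in adult and 0.903% in WT, each over 9526 genes, with 0 of 5 pseudogenes called in each. At an unadjusted p under 0.05 the counts were 2, 1 and 1 of the 5. They were 24, 5 and 34 of the 63 other ribosomal protein mRNAs, and 0, 1 and 1 of 8 pseudogenes of other families. The share of all genes under that unadjusted threshold was not counted, here or for the comparisons below. For KO against WT, 0 of 4 pseudogenes were called in J2 and 0 of 2 in flow-through, against a background of 0% in both. At an unadjusted p under 0.05 these counts were 0 and 1. For adult against WT, 0 of 4 were called in J2 and 0 of 2 in flow-through, with backgrounds of 5.46% and 3.23%, and 0 and 0 had an unadjusted p under 0.05. In the genotype by fraction and the age by fraction interaction, 0 of 5 were called against a background of 0% in each, with 1 and 0 at an unadjusted p under 0.05. No second tool was run, as the deposited values are normalized and not raw counts.

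The calls among these families fell on parents. In WT, 3 of the 15 parents tested rose in J2 against flow-through (0.525% of all genes rose): Rpl10, Rps26 (3.24, SE 0.734, adjusted p = 0.0468) and Rpl23a (3.14, SE 0.72, adjusted p = 0.0469). Calls were not particular to parents, as 7 of the 63 other ribosomal protein mRNAs also rose in WT. In KO, 0 of the 15 parents and 3 of the 63 others rose. Rps26 had 315, 274 and 332 units in WT J2 and 27.1, 24.8 and 46.5 in WT flow-through, and Rpl23a 245, 272 and 280 in WT J2 and 23.3, 31.5 and 34.1 in WT flow-through. Unlike that of Rpl10, both calls remained after summing with the copy (adjusted p = 0.0471 and 0.0475), since Rps26-ps1 and Rpl23a-ps3 were at or near 0 there. Both were lost (adjusted p from 0.0772 to 0.14 over both genes) when any 1 of the 6 WT libraries was left out, without the filter, or with the replicate code as a block or quantile normalization. The median J2 minus flow-through difference of the 15 parents was 0.77 in KO, -0.44 in adult and 1.52 in WT testis. For the 63 other ribosomal protein mRNAs it was 1.46 in KO, 0.19 in adult and 1.92 in WT, and for all genes -0.15 in KO, 0.05 in adult and -0.05 in WT.

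In adult J2 against WT J2, 1 of 15 parents fell: Rpl28, with 10.1 and 8.90 units in adult J2 and 131, 172 and 82.3 in WT J2 (difference -3.56, SE 0.73, adjusted p = 0.015 in limma). Genes that fell were 0.392% of the 6882 tested, and 3 of the 63 other ribosomal protein mRNAs fell. The Rpl28 call was lost without either adult library (adjusted p = 0.516 and 0.439) and without WT J2 replicate 2 (0.056). The median over the 15 parents was -2.24, beside -1.56 for the 63 other ribosomal protein mRNAs and 0.33 for all genes. Summed marker levels of several cell types differed between these same libraries. The 5 spermatid markers summed to 857 to 1608 units in adult J2 and 0 to 1.49 in WT J2. The 2 peritubular myoid markers summed to 7.51 to 9.77 units in adult J2 and 69.6 to 115 in WT J2, the 3 red cell markers to 3.06 to 5.07 in adult J2 and 70.6 to 293 in WT J2, and the 4 Sertoli markers to 49.3 to 113 in adult J2 and 125 to 381 in WT J2. The 4 Leydig markers summed to 115 to 142 units in adult J2 and 2.71 to 82.7 in WT J2. Their part in the result was not tested.

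Of the summed signal of the 16 families, the pseudogenes held 2.0% to 19.4% in a J2 library and 6.35% to 13.8% in a flow-through library. The share was 2.0%, 12.3% and 11.7% in KO J2 and 6.71%, 6.35% and 7.01% in KO flow-through. It was 19.4% and 13.8% in adult J2 and 6.76% and 7.72% in adult flow-through. It was 2.46%, 2.26% and 4.30% in WT J2 and 6.97%, 12.8% and 13.8% in WT flow-through. The J2 libraries thus lay below flow-through in WT, above it in adult and on both sides of it in KO. The group means were 8.64% ± 5.76 (SD, n = 3) in KO J2, 6.69% ± 0.332 (n = 3) in KO flow-through, 16.6% ± 4.02 (n = 2) in adult J2, 7.24% ± 0.674 (n = 2) in adult flow-through, 3.01% ± 1.13 (n = 3) in WT J2 and 11.2% ± 3.70 (n = 3) in WT flow-through.

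Single copies made up most of the pseudogene signal in many libraries. Rpl10-ps3 made up 100% and 53.3% of the pseudogene signal in the 2 adult flow-through libraries and 100%, 71.0% and 46.4% in the 3 WT ones. Rps12-ps3 made up 100%, 81.8% and 100% in the 3 KO flow-through libraries and 75.1%, 61.7% and 63.0% in the 3 WT J2 ones. Rps2-ps10 made up 83.8% in adult J2 replicate 1. Without the Rpl10 family, left out after the values were seen, the shares were 2.5%, 2.34% and 3.42% in WT J2 and 0%, 4.10% and 7.91% in WT flow-through, and the fractions overlapped. Without the Rps12 family, also left out after the values were seen, the KO flow-through shares were 0%, 1.22% and 0%. The adult shares were then 18.7% and 5.33% in J2 and 6.76% and 4.26% in flow-through, which overlapped, unlike those over all families. The shares were 0.623%, 0.877% and 1.63% in WT J2 and 6.97%, 9.45% and 9.01% in WT flow-through, and did not overlap.

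**Figure D4:**
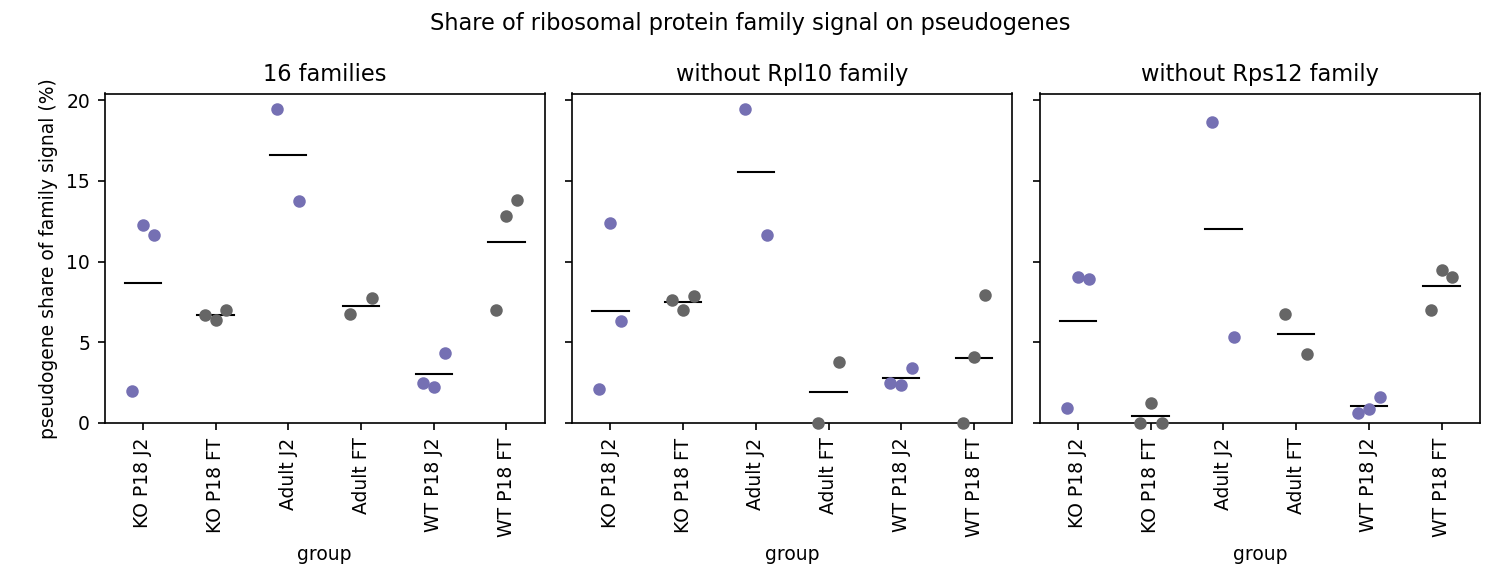
Share of the summed normalized counts of pseudogenes and parents that lies on the pseudogenes (%), per library (points, purple for J2 and grey for flow-through) with the group mean (line), over all 16 families, without the Rpl10 family and without the Rps12 family. WT J2 lies below WT flow-through in the first panel (2.26% to 4.30% in WT J2, 6.97% to 13.8% in WT flow-through) and overlaps it without the Rpl10 family.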

How the data were processed

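The authors deposited a signal per Ensembl gene and library that they had normalized from counts. The submitters' processing notes name FastQC, Trimmomatic, Salmon, DESeq2 and the build mm10, without versions or settings. Of the 35920 identifiers, 35446 matched a symbol and 474 did not. Each column was matched to its library, with 0 unmatched columns and 0 identical pairs.

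Tests used limma 3.58.1 (R 4.3.3) on log2(value + 1), with 1 mean per group and empirical Bayes with trend. They were two-sided, with Benjamini-Hochberg adjustment over every gene that reached 10 units in 2 or more fitted libraries. That scale understates the change of low genes. J2 against flow-through and the interactions were fitted over 16 libraries, other comparisons over the 8 of a fraction. Depth in reads is unknown. Alternatives changed the pseudocount, filter, scaling, libraries fitted and replicate block. Named were any called copies, the 15 with the highest mean, those with a mean above their parent's, and the parents of all these. Members and lists were chosen with earlier results of these data known.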

Additional observations from a re-analysis of the deposited data

Results flagged for a closer look

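The ratio of Rpl10-ps3 to its parent Rpl10 differed between genotypes in its dependence on the fraction. KO minus WT of the J2 minus flow-through difference in the log2 ratio was 13.17 (SE 2.70, limma adjusted p = 4.2e-05 over 8 pairs), from a difference of 4.08 in KO and -9.09 in WT. The spread in that fit came mostly from the 8 pairs together, not from the replicates of this pair. The contrast was added after the values were seen, and its size rests on groups at 0 and on the pseudocount of 1. The call remained in all 19 settings tried (smallest adjusted p over the pairs from 3.13e-06 to 0.00448). These were the main fit, a pseudocount of 10, the replicate block and leaving out each of the 16 libraries. The ratio was not refitted with the other scalings or filters. With the common total, KO minus WT in flow-through was -2.35 for Rpl10-ps3 and 2.54 for Rpl10, taken as separate genes. J2 minus flow-through of Rpl10-ps3 was then -0.80 in WT (SE 1.61) and 3.85 in KO (SE 1.61), against -3.74 and 3.55 in the main fit. The difference between KO and WT in that J2 effect was 4.65, against 7.29. No group had 4 or more libraries, so single libraries were not examined as outliers.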

How the results depend on the processing

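Rescaling all libraries to 1 common total, mitochondrial genes left out, gave 2 pseudogenes called higher in J2 in KO (Rps12-ps3, Rpl27-ps3), 2 in adult (Rps12-ps3, Rps2-ps10) and 1 in WT (Rps12-ps3), against 0 in each. That setting moved the median of all genes to 2.16 in KO, 2.74 in adult and 1.87 in WT. With it, 2848 of the 9526 genes tested were called higher in J2 in KO, 3460 in adult and 2562 in WT. The pseudogene calls, out of 5 tested, are therefore no result particular to the pseudogenes. Leaving out 1 library gave 0 to 1 called in KO (Rpl27-ps3, without KO J2 replicate 1) and 0 to 1 ribosomal pairs with a changed ratio in KO, again without KO J2 replicate 1. The pseudogene share changed by more than 1 SD as follows. Without the copy with the highest sum, Rps12-ps3, or without the Rps12 family, it was 0.407% in KO flow-through, 12% in adult J2, 5.51% in adult flow-through and 1.04% in WT J2. Without the Rpl10 family it was 7.48% in KO flow-through, 1.89% in adult flow-through and 4.0% in WT flow-through. With all ribosomal protein mRNAs as denominator it was 1.72% in KO J2, 1.47% in KO flow-through, 2.84% in adult J2, 1.25% in adult flow-through, 0.567% in WT J2 and 2.18% in WT flow-through, since more mRNAs enter the sum. At 50 units, 3 copies were detected in KO J2, 1 in adult J2 and 0 in KO flow-through, adult flow-through, WT J2 and WT flow-through.

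The sign of Rps12-ps3 reversed in KO J2 minus flow-through with the common total (3.55) and without KO J2 replicate 1 (-0.74 to 0.55 over the libraries left out), and in adult without adult flow-through replicate 1 (-0.33 to 3.60). KO minus WT in J2 was -0.30 with the common total and -0.24 with quantile normalization. It was -0.41 to 0.87 with 1 library left out, below 0 without WT J2 replicate 2, KO J2 replicate 2 or KO J2 replicate 3 (-0.16, -0.18 and -0.41). The cause was not tested. The call on Rpl10 in WT was lost with a pseudocount of 10 (adjusted p = 0.0508), with the compared groups alone (0.12) and without WT J2 replicate 2 (0.0574).

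A code in the table's header is shared by 1 J2 and 1 flow-through library. Libraries with the same code did not deviate together (correlations -0.0264 to 0.0306 over 9526 genes, with 5 of 12 P18 libraries correlating best with their own code). With that code as a replicate block, 0 pseudogenes were called, 20 genes were called in KO, 15 in adult and 24 in WT, against 34, 30 and 86 without it, and Rpl10 in WT had an adjusted p of 0.0842. Under the filter of 50, comparisons with no copy left gave no value. Unknown read depth limits every value of 0.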
